A study of Mus musculus with 11 samples.

Results

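The nuclear genes for respiratory complexes II, III, IV and V and for cytochrome c were followed in aged mouse muscle. The members were the 48 genes of the deposited table of CPM values (the reads of each gene scaled so that every library has the same total) whose symbols name a subunit of succinate dehydrogenase (Sdha, Sdhb, Sdhc, Sdhd), a Uqcr protein, cytochrome c1 (Cyc1), cytochrome c (Cycs), a cytochrome c oxidase subunit numbered from 4 to 8, or an ATP synthase subunit, out of 18269 genes in all. Names ending in -ps left out 7 further rows. Complex II had 4 members, complex III had 9 with Cyc1, cytochrome c had 1, complex IV had 17 and complex V had 17. Of the 48, 46 reached 1 CPM in at least 3 of the 11 libraries and were tested, 45 of them in every library. Cox6c2 passed in 5 libraries. Atp5g2, one more gene for the c ring of ATP synthase, and Cox6b2, known as a testis isoform, did not pass: Atp5g2 stood between 0.0865 and 1.20 CPM and Cox6b2 between 0.127 and 0.970 CPM.

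RNA came from the tibialis anterior, the mostly fast-fibred muscle at the front of the shin, of C57BL/6 mice aged 21 to 24 months in an injury model. Aged mice had received injections of young serum depleted of extracellular vesicles (EVs, the membrane-bound particles that cells shed; 3 libraries, numbered 2, 3 and 4), of young serum (4 libraries, 1 to 4) or of saline (4 libraries, 2, 3, 4 and 6). All 3 groups shared the strain, the age, the muscle and the injury model, and an uninjured or young muscle was not analysed here. The labels do not say that the libraries came from separate animals, so each p-value below speaks of the spread among these samples, part of which may be technical.

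Oxidative phosphorylation passes electrons along protein complexes of the mitochondrial inner membrane. Complex II, an enzyme of the citric acid cycle as well, hands electrons from succinate to ubiquinone without pumping protons. Complex III takes them from ubiquinol to cytochrome c, the soluble carrier, and complex IV takes them from cytochrome c to oxygen. Complexes III and IV pump protons as they do so, and complex V, the ATP synthase, lets the protons back to make ATP. Complex II is built from nuclear genes alone, whereas complexes III, IV and V also hold subunits made from mitochondrial DNA. The mitochondrial genes are not analysed here. In skeletal muscle these genes are known to be more abundant in slow and oxidative than in fast glycolytic fibres, and complex IV carries heart and muscle isoforms of subunits 6a, 7a and 8.

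Sequencing depth, worked out from the size of 1 read among low values, was between 36370000 and 42190000 reads a library. As a check of the tissue, 6 skeletal muscle genes (Ckm, Acta1, Myh4, Myh1, Mylpf and Tnnt3) summed to 127340 to 139709 CPM with EV-depleted serum, 139589 to 157232 CPM with young serum and 121478 to 162793 CPM with saline. Saline replicate 6 stood apart in the genes described here. The 48 members took 1.87%, 2.08% and 1.56% of all CPM with EV-depleted serum, 1.31%, 1.59%, 1.68% and 1.32% with young serum, and 1.69%, 1.75%, 1.68% and 3.40% with saline, so that replicate 6 was the one library above 2.08%. In the same library, 11 genes of slow fibres summed to 9324 CPM, against 1214 to 2195 CPM in the other saline libraries, 35 cytosolic ribosomal protein genes to 15342 CPM, against 4965 to 6823 CPM, and 5 red cell genes to 1488 CPM, against 191 to 468 CPM. Saline replicate 4 stood apart in 11 adipocyte genes, with a sum of 9504 CPM there, against sums of 2266 to 2466 CPM in replicates 2, 3 and 6. No gene of the slow fibre or adipocyte list was at 0 in the library named. Values without these libraries are given beside the main counts and medians over all members. Complex means against saline over all tested members are also given without saline replicate 6, and member differences without 1 of these libraries in part. A value printed with all libraries alone may have moved too. The part of fibre types or other cells was not tested. In bulk RNA, fewer cells of a type and less RNA per cell cannot be told apart.

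**Figure D1:**
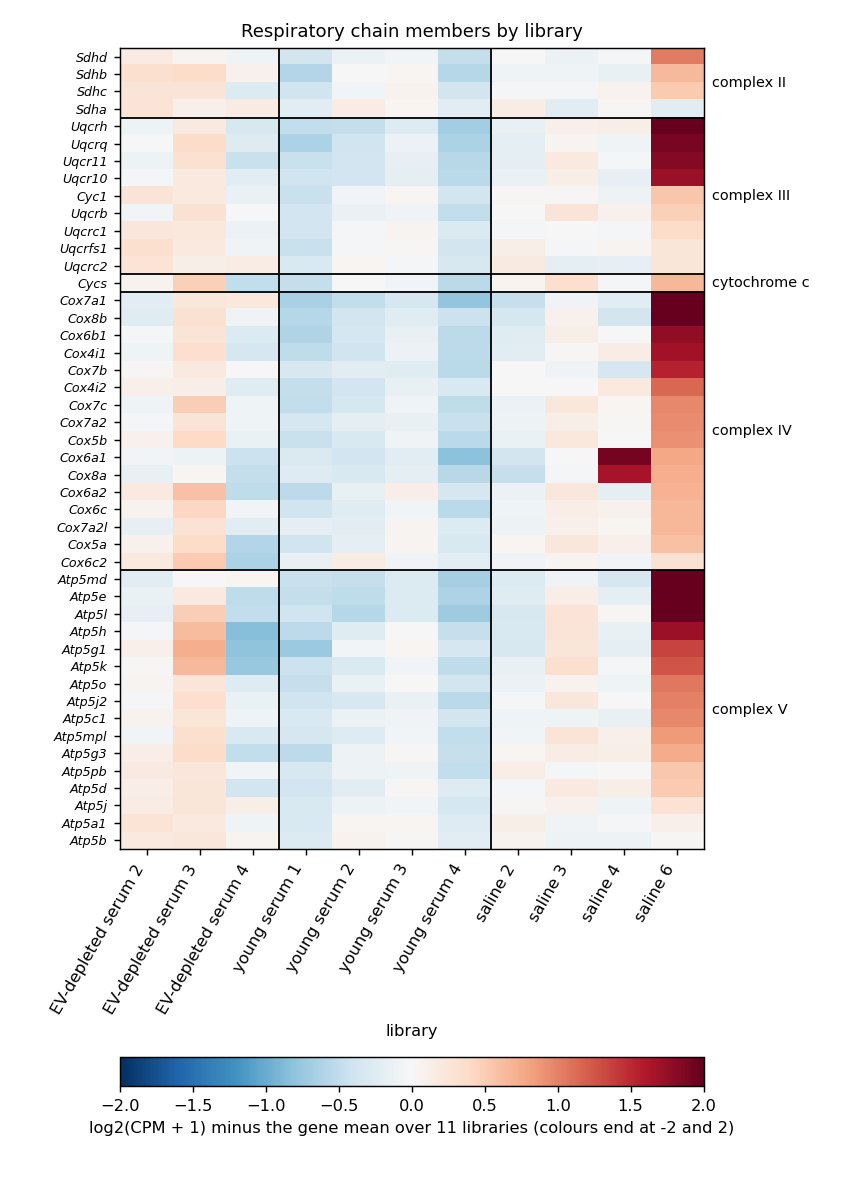
Level of each of the 46 tested members (rows, by complex) in each of the 11 libraries (columns), as log2(CPM + 1) minus the mean of that gene over the libraries; colours end at -2 and 2. Saline replicate 6 is red in nearly every row, with Sdha pale blue and Atp5b near white, young serum replicates 1 and 4 are blue, and saline replicate 4 is red at Cox6a1 and Cox8a.

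The sequences upstream of the members' starts were read for motifs known from nuclear genes of the respiratory chain in mammals. Whether the motifs bear on how the members varied from library to library was not tested. RefSeq windows for GRCm38.p6, running from 250 bases before to 50 bases after the gene start, were found for 36 of the 48 members, 34 of them among the tested genes. The motif of nuclear respiratory factor 1 (NRF1), GCGCA followed by any base and GCGC, was found on either strand in 9 of 34 windows (26.5%), against 11.6% of tested genes and 5.19% of all 27025 genes with a window. The core CCGGAAG of the ETS family, to which nuclear respiratory factor 2 belongs, was in 13 of 34 (38.2%), against 20.0% of tested genes and 9.93% of all. The motif of the estrogen-related receptors, TCAAGGTCA, was in 2 of 34 (5.88%), Atp5g3 and Sdhd, against 0.318% and 0.466%. CCAAT boxes were in 19 of 34 (55.9%), against 42.7% and 41.1%, and TATAAA was in 3 of 34 (8.82%), against 9.17% and 15.7%. The windows of the members had a median of 19 CpG dinucleotides, against 7 over all genes with a window, tested or not. A CpG median for tested genes alone is not given. A match is a description of the letters, not of a site in use.

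The windows below are printed 5′ to 3′ on the strand of the gene, all on the minus strand of GRCm38.p6. Sdhd was the member whose window held NRF1, ETS and ERR matches together, Atp5h held NRF1, ETS and CCAAT matches, and Cox8b and Cox8a show the muscle and the broadly expressed isoform of the same subunit. They were chosen after the motifs and values had been seen. Capitals mark the matches, on either strand. In Sdhd (chr9:50603800-50604099) they are GCGCACGCGC starting at -79, CTTCCGG (the ETS core read on the other strand) at -46 and TGACCTTGA (the ERR motif on the other strand) at 37. In Atp5h (chr11:115419870-115420169) they are GCGCAGGCGC at -141, ATTGG (the other strand of CCAAT) at -98 and -55 and CTTCCGG at -38. In Cox8b (chr7:140900397-140900696) TATAAA starts at 5. In Cox8a (chr19:7217567-7217866) ATTGG starts at -171 and CTTCCGG at -5 and 33.
Sdhd: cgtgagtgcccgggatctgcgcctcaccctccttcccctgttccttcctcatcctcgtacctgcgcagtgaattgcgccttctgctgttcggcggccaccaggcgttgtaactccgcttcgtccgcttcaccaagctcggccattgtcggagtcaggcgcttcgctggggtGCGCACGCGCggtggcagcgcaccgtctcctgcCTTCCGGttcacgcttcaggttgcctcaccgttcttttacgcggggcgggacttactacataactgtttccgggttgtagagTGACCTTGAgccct
Atp5h: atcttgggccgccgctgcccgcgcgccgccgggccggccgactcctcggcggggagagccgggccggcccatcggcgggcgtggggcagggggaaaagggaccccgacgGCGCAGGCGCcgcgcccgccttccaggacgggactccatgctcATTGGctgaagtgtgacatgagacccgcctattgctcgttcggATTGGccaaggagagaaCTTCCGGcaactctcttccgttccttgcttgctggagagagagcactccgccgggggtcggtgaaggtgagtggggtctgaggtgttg
Cox8b: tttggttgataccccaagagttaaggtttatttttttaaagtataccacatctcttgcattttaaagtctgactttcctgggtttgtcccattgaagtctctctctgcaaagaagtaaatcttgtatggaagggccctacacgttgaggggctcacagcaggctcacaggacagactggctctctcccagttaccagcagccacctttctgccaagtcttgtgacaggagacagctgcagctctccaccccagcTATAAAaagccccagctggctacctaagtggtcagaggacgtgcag
Cox8a: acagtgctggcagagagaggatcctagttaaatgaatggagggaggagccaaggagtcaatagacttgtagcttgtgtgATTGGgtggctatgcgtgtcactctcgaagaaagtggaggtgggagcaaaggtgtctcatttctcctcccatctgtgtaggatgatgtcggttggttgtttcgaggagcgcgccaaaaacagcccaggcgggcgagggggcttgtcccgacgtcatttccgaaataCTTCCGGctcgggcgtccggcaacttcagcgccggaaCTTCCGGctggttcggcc

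Levels of single genes were set side by side per length, as the median over the 11 libraries of CPM per kilobase of transcript. The median member had 220.5 CPM per kilobase in complex II, 388 in complex III, 306 in complex IV and 401 in complex V. Atp5b, the catalytic beta subunit of ATP synthase, was highest of the 46 at 1294 CPM per kilobase. Cox6a2, the muscle form of subunit 6a, followed at 1051, Cox8b at 948 and Atp5a1, the alpha subunit, at 864. Cytochrome c itself was low on this scale, at 23.8 CPM per kilobase of a transcript of 3123 bases. Cox4i2, an isoform of subunit 4 known from lung, stood at 2.76 and Cox6c2 at 4.29 CPM per kilobase. GENCODE M21 lists Cox6c2 as a processed pseudogene, and no source used here states how reads shared with Cox6c were counted, so its values are uncertain.

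Young serum against saline asks whether serum from young animals shifted these genes in injured old muscle. None of the 46 members passed limma at an adjusted p of 0.05, where 0% of the 13187 tested genes passed. All 46 members had a lower mean on the log2(CPM + 1) scale with young serum than with saline, where 52.5% of tested genes did. The median difference of the members was -0.53, against -0.02 over all tested genes. At an unadjusted p under 0.05, 24 of the 46 were lower and none higher, against 11.4% and 10.5% of tested genes. By complex these were 0 of 4 in complex II, 6 of 9 in complex III, cytochrome c, 10 of 16 in complex IV and 7 of 16 in complex V. In 9 members, every young serum library was below every saline library, against 6.08% of tested genes: Atp5e, Atp5g3, Atp5j2, Atp5pb, Cox4i2, Cox7a2, Uqcr10, Uqcrb and Uqcrh. Members share the same libraries, so a count of members is not a count of independent observations. Markers of other cells moved with this comparison: of 10 macrophage genes 9 were tested and all 9 were lower with young serum, the 10 summing to 49.1 to 147 CPM with young serum and 121 to 328 CPM with saline. The 11 adipocyte genes were all lower too, at 1884 to 3020 CPM with young serum and 2266 to 9504 CPM with saline. The 9504 CPM was saline replicate 4. Saline replicates 2, 3 and 6 stood at 2266 to 2466 CPM, within the range of young serum. All 5 red cell genes were lower as well, at a median of -1.22 and sums of 89.1 to 250 CPM, against 191 to 1488 CPM with saline. The 1488 CPM was saline replicate 6, and the other saline libraries reached 468 CPM. Of the 11 slow fibre genes, 9 were lower and 2 higher, at a median of -0.36. Their part in the members' differences was not tested.

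The size of these differences rested in part on 1 library. Without saline replicate 6, the median of the 46 members was -0.29, all 46 stayed lower and 17 had an unadjusted p under 0.05, against 8.61% of tested genes lower at that threshold in the same fit. The 9 members without overlap were the same 9, against 7.46% of tested genes. Without saline replicate 4, the median was -0.58, 45 were lower, and the count at an unadjusted p under 0.05 was 30, against 8.77%. Without young serum replicate 1 that count was 11, against 9.61%, without young serum replicate 2 it was 15, against 6.73%, and without young serum replicate 4 it was 7, against 5.39%, the last with a median of -0.47. Without saline replicates 4 and 6 together, a choice made after seeing the data, the median was -0.29 and the count 7, against 3.47%. With libraries rescaled by the median of ratios the count was 11, against 11.8%, with all 46 still lower. When limma weighted each library by its own spread, which gave saline replicates 4 and 6 weights of 0.208 and 0.295, 17 members passed at an adjusted p of 0.05, beside 3441 of the tested genes.

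EV-depleted serum against young serum asks whether serum without EVs left these genes at other levels than whole serum. None of the 46 members passed limma, where 0% of tested genes passed, and the adjusted p was 0.99998 for each of the 46. All 46 had a higher mean with EV-depleted serum than with young serum, against 51.3% of tested genes, with a median difference of 0.32, against 0.005 over all tested genes. At an unadjusted p under 0.05, 7 members were higher, against 1.75% of tested genes: Sdhb, Uqcrb, Uqcrc2, Uqcrfs1, Cox6c, Atp5j and Atp5pb. None was lower, against 0.478%. In 10 members every EV-depleted serum library was above every young serum library, against 4.16% of tested genes: Sdhb, Uqcrb, Uqcrc2, Cox7a1, Cox7a2, Cox7b, Atp5j, Atp5j2, Atp5md and Atp5pb. This comparison shares the young serum libraries with the one above, and low values in them enter both. Its SEs and limma p-values use a spread estimated over all 3 groups, so the saline libraries enter them, though not the differences.

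Single libraries moved these counts too. Without EV-depleted serum replicate 3, 40 members were higher and 6 lower, and 1 was higher at an unadjusted p under 0.05, against 1.65% of tested genes. That count was also 1 without young serum replicate 1, against 1.12%, and without young serum replicate 4, against 0.599%. It was 2 without EV-depleted serum replicate 2, against 0.804%, and 18 without EV-depleted serum replicate 4, against 1.4%. With libraries rescaled by the median of ratios it was 0, against 1.3%, with all 46 still higher. It was 21, against 3.4% of tested genes, with these 2 groups fitted alone, and 25, against 7.56%, with library weights. The 11 slow fibre genes summed to 4633, 6121 and 3870 CPM with EV-depleted serum and to 1239, 2663, 3987 and 1158 CPM with young serum. All 11 averaged higher with EV-depleted serum, at a median difference of 1.78, and none passed limma. The 5 red cell genes were all higher too, at a median difference of 0.81. They summed to 255 to 282 CPM with EV-depleted serum and 89.1 to 250 CPM with young serum. Their part in the members' differences was not tested.

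For EV-depleted serum against saline, members lay on both sides of 0. Of the 46 members, 38 were lower and 8 higher with EV-depleted serum, against 50.4% lower and 49.6% higher among tested genes, with a median of -0.21, against -0.002 over all tested genes. None passed limma, where 0% of tested genes passed, and none had an unadjusted p under 0.05 in either direction, against 5.59% lower and 6.49% higher. The 8 that were higher were Sdha, Sdhb, Uqcrc1, Uqcrc2, Uqcrfs1, Atp5a1, Atp5b and Atp5j. Without saline replicate 6 the count turned to 18 lower and 28 higher, with a median of 0.05, and without saline replicate 4 it was 39 lower and 7 higher, with a median of -0.29. Markers of other cells and fibres differed here too, with no gene past limma: all 11 slow fibre genes were higher with EV-depleted serum, at a median of 1.14 and sums of 3870 to 6121 CPM, against 1214 to 9324 CPM with saline. All 9 tested macrophage genes were lower, at a median of -0.99 and 6 of them at an unadjusted p under 0.05, and the 10 summed to 69.6 to 116 CPM with EV-depleted serum and 121 to 328 CPM with saline. Of the 11 adipocyte genes, 9 were lower, at a median of -1.31 and sums of 2416 to 2942 CPM with EV-depleted serum and 2266 to 9504 CPM with saline. The 9504 CPM was saline replicate 4, and saline replicates 2, 3 and 6 stood at 2266 to 2466 CPM. The part of these markers in the members' differences was not tested. Both comparisons with saline use the same 4 saline libraries.

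**Figure D2:**
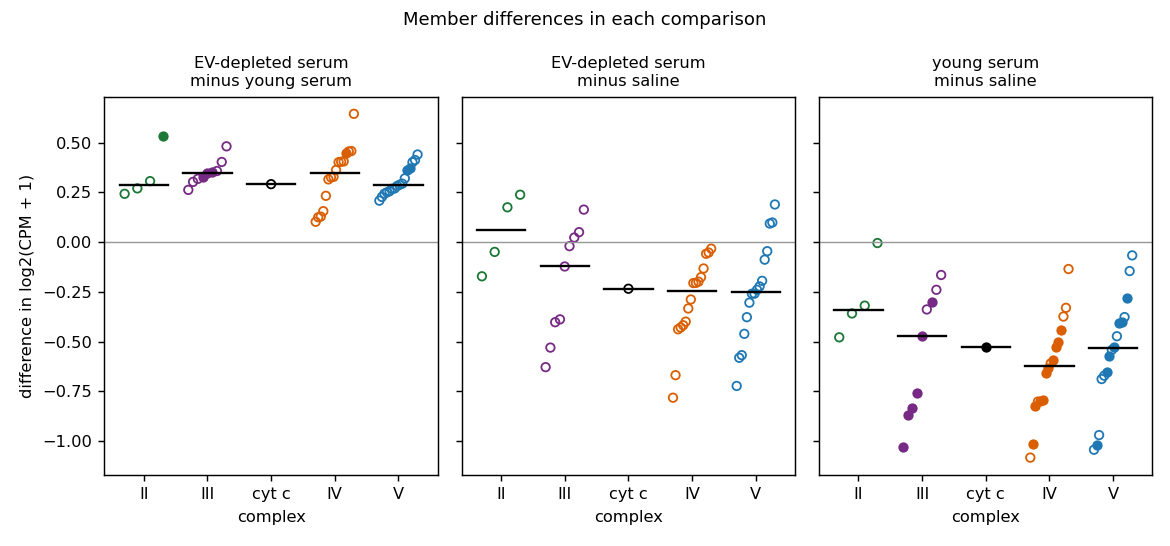
Difference in log2(CPM + 1) of each tested member, by complex, for EV-depleted serum minus young serum (left), EV-depleted serum minus saline (middle) and young serum minus saline (right). Filled points have an unadjusted p under 0.05 by limma, open points do not, and black lines are medians; all 46 points lie above 0 at the left and below 0 at the right, and none of them passed after adjustment.

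The complexes were compared through the mean of log2(CPM + 1) over their tested members in each library, each gene centred on its own mean over the 11 libraries. These means describe a chosen list and carry no test. Complex II stood at 0.25, 0.19 and -0.03 with EV-depleted serum, at -0.39, -0.01, 0.02 and -0.41 with young serum, and at 0.01, -0.12, -0.02 and 0.50 with saline. Complex III stood at 0.09, 0.23 and -0.16 with EV-depleted serum, at -0.43, -0.21, -0.08 and -0.47 with young serum, and at -0.04, 0.06, -0.04 and 1.05 with saline. In both complexes young serum replicates 1 and 4 were the lowest of the 11 libraries and saline replicate 6 the highest.

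Complex IV stood at -0.02, 0.30 and -0.24 with EV-depleted serum, at -0.42, -0.27, -0.11 and -0.48 with young serum, and at -0.18, 0.08, 0.19 and 1.15 with saline. Complex V stood at 0.04, 0.34 and -0.31 with EV-depleted serum, at -0.41, -0.21, -0.07 and -0.44 with young serum, and at -0.10, 0.11, -0.06 and 1.12 with saline. The order of the young serum libraries, 3 above 2 above 1 above 4, was the same in all 4 complexes. Between EV-depleted serum replicates 2 and 3 the order differed: replicate 2 was the higher in complex II and replicate 3 the higher in complexes III, IV and V.

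**Figure D3:**
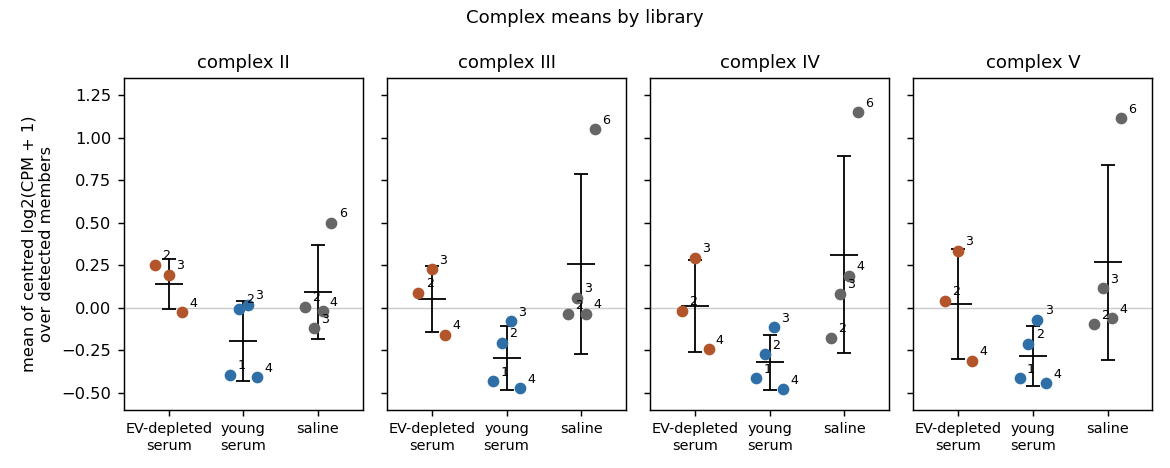
Mean of the centred log2(CPM + 1) values over the tested members of complexes II (4 genes), III (9), IV (16) and V (16), one point for each library, numbered by replicate, with black bars for the group mean and SD. Saline replicate 6 is at 0.50 in complex II and between 1.05 and 1.15 in the others.

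With young serum minus saline, the complex means differed by -0.29 ± 0.18 in complex II, -0.56 ± 0.28 in complex III, -0.63 ± 0.30 in complex IV and -0.55 ± 0.30 in complex V (SE over 4 and 4 libraries). Complex II differed least, and the gap between complex IV and complex II was -0.34 ± 0.18. Without saline replicate 6 the 4 values were -0.15, -0.29, -0.35 and -0.27, in the order II, III, IV and V. With EV-depleted serum minus young serum they were 0.34 ± 0.15, 0.35 ± 0.15, 0.33 ± 0.18 and 0.31 ± 0.21 in the same order (SE over 3 and 4 libraries). Without EV-depleted serum replicate 3, the value was 0.31 in complex II, 0.26 in complex III, 0.19 in complex IV and 0.15 in complex V. The complex IV mean includes Cox6c2, listed as a processed pseudogene, and Cox7a2l, a supercomplex factor. Without both, a choice made after seeing the data, it differed by -0.69 ± 0.33 for young serum minus saline. For EV-depleted serum minus young serum the value was then 0.36 ± 0.17.

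With EV-depleted serum minus saline, the complex means differed by 0.05 ± 0.16 in complex II, -0.21 ± 0.29 in complex III, -0.30 ± 0.33 in complex IV and -0.25 ± 0.34 in complex V. Each of these is within 1 SE of 0. Without saline replicate 6 they were 0.18, 0.06, -0.02 and 0.04. By share of the members' reads, which is not corrected for length, complex II took 8.19% to 10.6% in the 10 libraries other than saline replicate 6 and 5.90% in that one, and complex IV took 20.7% to 25.03% in the 10 and 31.5% in that one. Complex III took 17.5% to 18.4% in the 10 and 19.8% in saline replicate 6, and complex V 47.9% to 50.7% in the 10 and 42.4% in that library.

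In complex II, Sdha, the flavoprotein that oxidises succinate, stood at 959, 855 and 888 CPM with EV-depleted serum, 686, 879.6, 815 and 678 CPM with young serum and 884, 681, 813 and 690.2 CPM with saline. The groups overlapped, and saline replicate 6 was not high. Sdha gave the smallest difference of the 46 for young serum minus saline, at -0.00 ± 0.12 (log2, SE, limma adjusted p = 0.987). It was 0.03 without saline replicate 4 and -0.052 without saline replicate 6. In that last setting the smallest difference was -0.048, in Atp5b. Sdhb, the iron-sulphur subunit, stood at 416, 429 and 354 CPM with EV-depleted serum, 222, 336, 341 and 224 CPM with young serum and 313, 314, 299.9 and 525 CPM with saline. All 3 EV-depleted serum libraries were above all 4 young serum libraries, and saline replicate 6 was above both. The difference was 0.53 ± 0.22 for EV-depleted serum minus young serum (unadjusted p = 0.0326 by limma) and -0.36 ± 0.20 for young serum minus saline (adjusted p = 0.304 by limma), the second being -0.17 without saline replicate 6.

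The membrane anchors of complex II bind ubiquinone and haem. Sdhc stood at 306, 306 and 211 CPM with EV-depleted serum, 193, 247, 268 and 198 CPM with young serum and 251, 248, 269 and 366 CPM with saline. Its groups overlapped, with young serum replicates 1 and 4 lowest. Sdhd stood at 230.5, 213 and 196 CPM with EV-depleted serum, 158, 188, 197 and 148 CPM with young serum and 205, 189, 201 and 424 CPM with saline. Saline replicate 6 had 2.14 times the mean of the other saline libraries. The young serum libraries overlapped the other saline libraries, and the difference of -0.48 ± 0.22 for young serum minus saline did not pass (limma adjusted p = 0.236) and was -0.20 without saline replicate 6.

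In complex III, the core proteins Uqcrc1 and Uqcrc2 face the matrix and resemble processing peptidases. Uqcrc1 stood at 832, 819.6 and 654 CPM with EV-depleted serum, 545, 699, 741 and 582 CPM with young serum and 698, 718, 693 and 919.6 CPM with saline. Its EV-depleted serum and young serum libraries overlapped. Uqcrc2 stood at 437, 393 and 402 CPM with EV-depleted serum, 294, 373, 357 and 289 CPM with young serum and 410.5, 317, 323 and 426 CPM with saline. The EV-depleted serum libraries were all above the young serum ones, with a difference of 0.33 ± 0.14 (unadjusted p = 0.0384 by limma), and the young serum and saline libraries overlapped. Among members of complex III, Uqcrc2 had the smallest difference for young serum minus saline, at -0.17 ± 0.13, or -0.09 without saline replicate 6.

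The redox subunits of complex III are cytochrome c1 and the Rieske iron-sulphur protein. Cyc1 stood at 505, 479.6 and 385 CPM with EV-depleted serum, 309, 403, 432 and 325 CPM with young serum and 427, 428, 393 and 621 CPM with saline. Uqcrfs1, the Rieske protein, stood at 469, 432 and 360.1 CPM with EV-depleted serum, 278, 368, 384 and 292 CPM with young serum and 411, 369, 391 and 446 CPM with saline. Young serum replicates 1 and 4 were the lowest libraries in both genes, and the groups overlapped. For EV-depleted serum minus young serum, Uqcrfs1 differed by 0.35 ± 0.14 (unadjusted p = 0.0301 by limma) and Cyc1 by 0.32 ± 0.18.

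The small subunits of complex III hold no redox centre. Uqcrb, which sits near the ubiquinone site, stood at 149.7, 192 and 154 CPM with EV-depleted serum, 119, 142, 148 and 110.1 CPM with young serum and 155, 186, 165 and 216 CPM with saline. Its young serum libraries were all below both other groups, and its unadjusted p for young serum minus saline, 0.00577, was the lowest of the 46 members (difference -0.47 ± 0.14, limma adjusted p = 0.18). Uqcrh, the hinge protein that helps cytochrome c dock, stood at 219, 268 and 187 CPM with EV-depleted serum, 166, 168, 197 and 145 CPM with young serum and 212, 252, 256 and 1025 CPM with saline. The young serum libraries were below all saline libraries, and saline replicate 6 stood at 4.27 times the mean of the other saline libraries. The difference for young serum minus saline was -1.03 ± 0.40 (limma adjusted p = 0.19), or -0.51 without that library.

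Uqcr11 stood at 229, 301 and 179 CPM with EV-depleted serum, 180.0, 188, 219 and 166 CPM with young serum and 214, 280.2, 238 and 873 CPM with saline. Young serum replicate 3 overlapped the saline libraries. In Uqcr10 and Uqcrq, saline replicate 6 stood at 798 and 1414 CPM and the other libraries of both genes between 167 and 486 CPM. As sub-groups of complex III, the median for young serum minus saline was -0.20 in the 2 core proteins, -0.32 in the 2 redox subunits and -0.83 in the 5 small subunits, or -0.12, -0.22 and -0.38 without saline replicate 6. For EV-depleted serum minus young serum the same medians were 0.30, 0.33 and 0.36.

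Cycs, the cytochrome c of somatic cells, stood at 79.0, 105 and 53.2 CPM with EV-depleted serum, 53.5, 74.4, 72.2 and 51.4 CPM with young serum and 77.9, 95.1, 72.8 and 120.1 CPM with saline. Young serum replicate 2 overlapped saline replicate 4, and EV-depleted serum replicate 4 lay among the young serum libraries. The difference was -0.53 ± 0.22 for young serum minus saline (limma adjusted p = 0.208) and 0.29 ± 0.24 for EV-depleted serum minus young serum.

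In complex IV, the nuclear subunits surround a catalytic core made in mitochondria. Cox4i1, the main form of the regulatory subunit 4, stood at 662, 886 and 555 CPM with EV-depleted serum, 489, 533, 643 and 487 CPM with young serum and 598, 712, 774 and 2236 CPM with saline. Apart from saline replicate 6 the groups overlapped, and the difference for young serum minus saline was -0.79 ± 0.34 (limma adjusted p = 0.213), or -0.37 without that library. Cox4i2 stood at 2.26, 2.33 and 1.55 CPM with EV-depleted serum, 1.17, 1.32, 1.75 and 1.46 CPM with young serum and 2.01, 2.004, 2.48 and 5.73 CPM with saline. All young serum libraries were below all saline libraries, at a level close to the filter. Cox6b1, which faces the intermembrane space, stood at 247, 304 and 207 CPM with EV-depleted serum, 164, 196, 225 and 173 CPM with young serum and 211, 270.4, 252 and 855 CPM with saline. Cox6b2, the other form of that subunit, was under 1 CPM in every library.

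Cox6c, a small membrane subunit, stood at 336, 429 and 310.2 CPM with EV-depleted serum, 244, 271, 310.4 and 221 CPM with young serum and 301, 351, 339 and 511 CPM with saline. Young serum replicate 3 and EV-depleted serum replicate 4 were level. Its difference was 0.45 ± 0.19 for EV-depleted serum minus young serum (unadjusted p = 0.0337 by limma) and -0.50 ± 0.17 for young serum minus saline (adjusted p = 0.18 by limma). Cox6c2 stood between 0.33 and 1.97 CPM in the 11 libraries, with overlapping groups. The other broadly expressed subunits, Cox5a, Cox5b, Cox7b and Cox7c, differed by -0.44 ± 0.20, -0.59 ± 0.21, -0.61 ± 0.32 and -0.63 ± 0.22 for young serum minus saline, or -0.33, -0.37, -0.19 and -0.40 without saline replicate 6. Cox7a2l, a factor that joins complexes III and IV into supercomplexes, differed by -0.33 ± 0.17, or -0.17 without that library.

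Subunits 6a, 7a and 8 of complex IV each come in a heart and muscle form and a broadly expressed form. Cox6a2, the muscle form, stood at 894, 1163 and 549 CPM with EV-depleted serum, 538, 699, 851 and 616 CPM with young serum and 715, 906, 679 and 1266 CPM with saline. Cox6a1, the broadly expressed form, stood at 30.5, 29.5 and 23.4 CPM with EV-depleted serum, 25.8, 24.2, 27.0 and 17.6 CPM with young serum and 24.6, 32.1, 123 and 55.2 CPM with saline. Saline replicate 4 was highest in Cox6a1 and lowest of the saline libraries in Cox6a2.

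Cox8b, the muscle form of subunit 8, stood at 341, 502 and 387 CPM with EV-depleted serum, 273, 313, 341 and 301 CPM with young serum and 318, 429.5, 314 and 1898 CPM with saline. Cox8a, its broadly expressed form, stood at 34.5, 39.6 and 27.2 CPM with EV-depleted serum, 31.9, 30.9, 33.9 and 25.8 CPM with young serum and 27.5, 37.5, 123 and 64.5 CPM with saline. Saline replicate 6 was highest in Cox8b, and saline replicate 4 in Cox8a. Beside the Cox6a1 and Cox8a values in saline replicate 4 stand Adipoq at 320 CPM, a hormone of fat cells, and Fabp4, their fatty acid carrier, at 1543 CPM, against 8.76 to 28.8 CPM and 125 to 256 CPM in saline replicates 2, 3 and 6.

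Cox7a1, the muscle form of subunit 7a, stood at 165, 224 and 220.1 CPM with EV-depleted serum, 121, 135, 151 and 109.7 CPM with young serum and 138, 182, 162 and 1355 CPM with saline. Cox7a2, the broadly expressed form, stood at 104, 126 and 99.8 CPM with EV-depleted serum, 83.5, 92.7, 95.3 and 77.0 CPM with young serum and 98.0, 115, 107 and 205 CPM with saline. All EV-depleted serum libraries were above all young serum libraries in both genes. Cox7a1 had the largest difference of the 46 for young serum minus saline, -1.08 ± 0.57, and for EV-depleted serum minus young serum, 0.65 ± 0.62, with adjusted p-values of 0.275 and 0.99998 by limma. Both SEs rest on a spread shared by the 3 groups. The SD of Cox7a1 was 32.8 CPM with EV-depleted serum, 17.9 CPM with young serum and 598 CPM with saline. In saline replicate 6, Cox7a1 was 8.43 times the mean of the other saline libraries. Without that library the difference for young serum minus saline was -0.31 in Cox7a1, and the largest of any member was -0.95 in Cox6a1. Without saline replicate 4 it was -1.33 in Cox7a1, and without both replicates 4 and 6 the largest was -0.47, in Atp5l.

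The balance between isoforms was taken as the ratio of CPM + 1 values in each library. Cox7a1 over Cox7a2 was 1.59, 1.77 and 2.19 with EV-depleted serum, 1.44, 1.45, 1.58 and 1.42 with young serum and 1.40, 1.58, 1.51 and 6.58 with saline. The 3 ratios with EV-depleted serum were above the 4 with young serum, a difference of 0.32 in mean log2 ratio (exact two-sided permutation p = 0.0571, 0.857 after Benjamini-Hochberg adjustment over 15 tests). With 3 against 4 libraries 0.0571 is the smallest p that test can give, and with 4 against 4 it is 0.0286. Had each of the 15 tests given its own smallest p, the adjusted p would be 0.0571, so no ratio could pass after adjustment and a ratio that did not pass says nothing of whether the groups differed. Saline replicate 6 stood apart from all others in this ratio, and young serum minus saline was -0.56 with it and -0.02 without it in mean log2 ratio.

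Cox6a2 over Cox6a1 was 28.4, 38.2 and 22.5 with EV-depleted serum, 20.1, 27.7, 30.4 and 33.2 with young serum and 28.0, 27.4, 5.50 and 22.6 with saline. Cox8b over Cox8a was 9.63, 12.4 and 13.8 with EV-depleted serum, 8.34, 9.85, 9.81 and 11.3 with young serum and 11.2, 11.2, 2.54 and 29.0 with saline. Saline replicate 4 had the lowest value of both ratios, and saline replicate 6 the highest of Cox8b over Cox8a. For young serum minus saline, the mean log2 ratio differed by 0.64 in Cox6a2 over Cox6a1, or 0.08 without saline replicate 4. In Cox8b over Cox8a it differed by -0.004, or -0.65 without saline replicate 4 and 0.52 without saline replicate 6. Cox4i2 over Cox4i1 lay between 0.00301 and 0.00504 in all libraries.

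**Figure D4:**
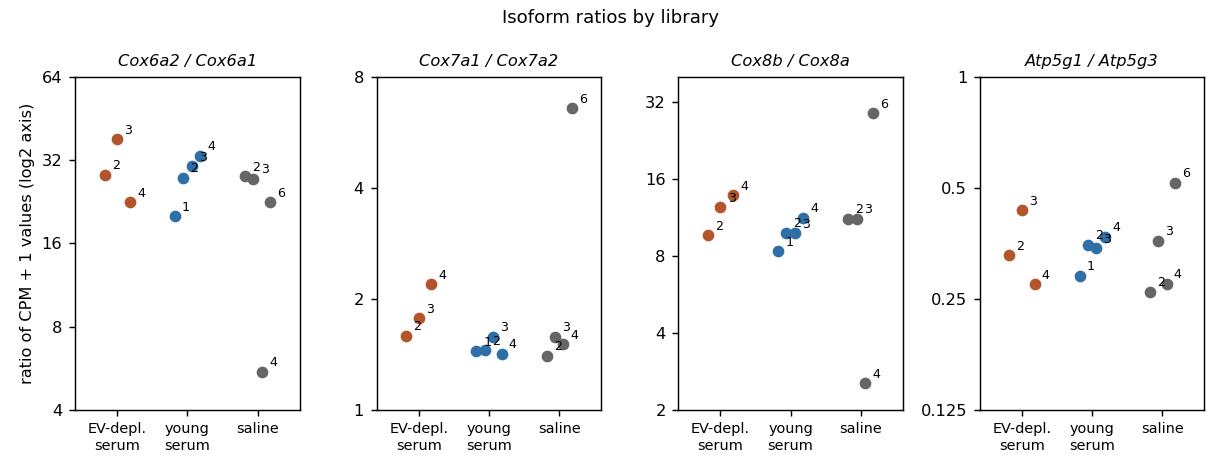
Ratio of CPM + 1 values of 3 pairs of complex IV isoforms, muscle form over broadly expressed form, and of the c ring genes Atp5g1 over Atp5g3, one point for each library, numbered by replicate, on log2 axes. Saline replicate 4 is at 5.50 for Cox6a2 over Cox6a1 and 2.54 for Cox8b over Cox8a, and saline replicate 6 at 6.58 for Cox7a1 over Cox7a2.

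In complex V, the F1 head that makes ATP faces the matrix. Atp5b, its catalytic beta subunit, stood at 2778, 2857 and 2527 CPM with EV-depleted serum, 2018, 2561, 2479.5 and 2089.5 CPM with young serum and 2551, 2252, 2264 and 2477 CPM with saline. Atp5a1, the alpha subunit, ranged from 1955 to 2504 CPM with EV-depleted serum, 1691 to 2138 CPM with young serum and 1972 to 2249.6 CPM with saline. The groups overlapped in both genes and saline replicate 6 lay within the range of the other saline libraries. For young serum minus saline, Atp5b differed by -0.07 ± 0.11 (limma adjusted p = 0.74) and Atp5a1 by -0.15 ± 0.12.

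The central stalk turns inside the head. Its smallest subunit, epsilon, is Atp5e, with 347, 436 and 267 CPM with EV-depleted serum, 273, 266, 315 and 248 CPM with young serum and 319, 418, 332 and 2320.4 CPM with saline. All young serum libraries were below all saline libraries, and saline replicate 6 was 6.51 times the mean of the other 3. The difference of -1.04 ± 0.51 for young serum minus saline had a limma adjusted p of 0.248 and was -0.37 without saline replicate 6. Atp5c1 and Atp5d, the gamma and delta subunits, differed by -0.38 ± 0.22 and -0.40 ± 0.16, or -0.11 and -0.30 without that library.

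The peripheral stalk keeps the head from turning. Atp5pb, subunit b, stood at 511, 527 and 436 CPM with EV-depleted serum, 363, 423, 426 and 321 CPM with young serum and 496, 442, 455 and 654 CPM with saline. Its young serum libraries were below all libraries of both other groups. The difference was -0.41 ± 0.14 for young serum minus saline (adjusted p = 0.18 by limma) and 0.36 ± 0.16 for EV-depleted serum minus young serum (unadjusted p = 0.0384 by limma). Atp5j, coupling factor 6, stood at 323, 347 and 316 CPM with EV-depleted serum, 235, 273, 280.0 and 229 CPM with young serum and 297, 309, 275 and 356 CPM with saline. The EV-depleted serum libraries were all above the young serum ones, at a difference of 0.37 ± 0.12, and its unadjusted p of 0.00775 was the lowest of the 46 members in that comparison.

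Atp5h, subunit d of the same stalk, stood at 111, 176 and 62.3 CPM with EV-depleted serum, 78.2, 95.2, 112 and 82.1 CPM with young serum and 91.0, 135, 102 and 375 CPM with saline. EV-depleted serum replicates 3 and 4 were the highest and the lowest of the 10 libraries other than saline replicate 6. The c ring is the rotor that protons turn, and its subunit is made from separate genes that give the same mature protein. Atp5g1 stood at 165, 256 and 88.1 CPM with EV-depleted serum, 91.5, 148, 159 and 122 CPM with young serum and 123, 182, 135 and 395 CPM with saline. Atp5g3 stood at 503, 589 and 324 CPM with EV-depleted serum, 319, 424, 465 and 332 CPM with young serum and 472, 507, 493 and 765 CPM with saline. The young serum libraries were below all saline libraries in Atp5g3, at -0.53 ± 0.21 (adjusted p = 0.198 by limma), and overlapped them in Atp5g1. The ratio of Atp5g1 over Atp5g3 was 0.329, 0.435 and 0.274 with EV-depleted serum, 0.289, 0.350, 0.343 and 0.368 with young serum and 0.261, 0.359, 0.275 and 0.517 with saline, with no order between the groups.

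The small membrane subunits of complex V help pair ATP synthases along the cristae. Atp5j2, subunit f, stood at 274, 352 and 254 CPM with EV-depleted serum, 209.8, 222, 253 and 191 CPM with young serum and 274, 326, 278 and 557 CPM with saline. Its young serum libraries were below all libraries of both other groups, at -0.65 ± 0.21 for young serum minus saline (limma adjusted p = 0.18), or -0.42 without saline replicate 6. The other 4, Atp5k, Atp5l, Atp5md and Atp5mpl, differed by -0.67 ± 0.33, -1.02 ± 0.43, -0.97 ± 0.54 and -0.57 ± 0.20 in that comparison, or -0.37, -0.49, -0.24 and -0.38 without saline replicate 6. In saline replicate 6 Atp5md had 1092 CPM, against 133 to 160.0 CPM in saline replicates 2, 3 and 4. By sub-group, the median for young serum minus saline was -0.11 in the 2 head subunits, -0.40 in the 3 of the central stalk, -0.44 in the 4 of the peripheral stalk, -0.53 in the 2 tested c ring genes and -0.67 in the 5 small membrane subunits. Without saline replicate 6 those medians were -0.08, -0.30, -0.23, -0.27 and -0.38. For EV-depleted serum minus young serum those medians were 0.25, 0.29, 0.31, 0.28 and 0.40.

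In saline replicate 6 the members' values varied with transcript length. The log2(CPM + 1) of that library minus the mean of the other saline libraries ran from -0.19 in Sdha to 3.08 in Cox7a1. The 25 members with transcripts under 700 bases had a median of 1.21 and the 21 longer ones a median of 0.58. Over all tested genes with a length, the 980 under 700 bases had a median of 0.33 and the 12186 longer ones a median of -0.21. Spearman's rho between length and this difference was -0.58 over the 46 members and -0.55 over 13166 genes, within that library's comparison and with genes that share it. Among members under 700 bases the values still spread from 0.25 to 3.08: Uqcrb with 535 bases was at 0.36 and Uqcrh with 547 bases at 2.10.

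**Figure D5:**
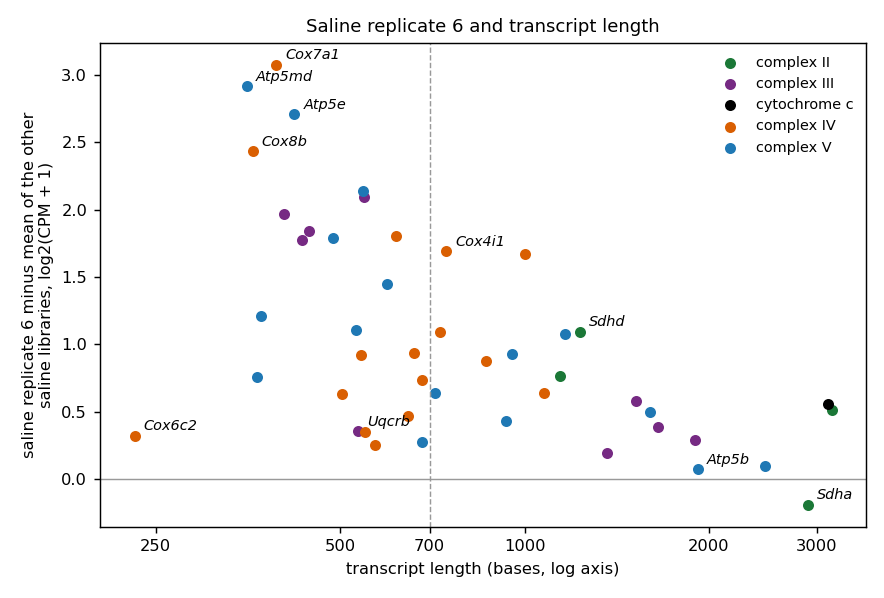
Saline replicate 6 minus the mean of saline replicates 2, 3 and 4 in log2(CPM + 1), against transcript length in bases on a log axis, one point for each tested member, coloured by complex. Members left of the dashed line at 700 bases reach 3.08, and the long transcripts of Sdha, Atp5b and Atp5a1 lie near 0.

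The same split bears on the comparison of complexes, since complex II holds no member under 700 bases. For young serum minus saline, the 25 short members had a median of -0.69 and the 21 longer members a median of -0.38, against -0.35 and -0.004 over all tested genes in the same length classes. Without saline replicate 6 the members' medians were -0.34 and -0.19, against -0.22 and -0.04 over all tested genes. With members of at least 700 bases alone, a choice made after seeing the data, the complex means differed by -0.29 in complex II, -0.26 in complex III, -0.60 in complex IV and -0.37 in complex V. In complex IV those members were Cox4i1, Cox4i2, Cox5b, Cox7a2l and Cox7b. Without saline replicate 6 they differed by -0.37, -0.39, -0.37, -0.17 and -0.19 in that order. The complex means of the longer members all keep saline replicate 6. Complex II, which holds longer members only, differed by -0.15 without it. For the other complexes this mean is not given without that library, so neither is the gap between complexes. For EV-depleted serum minus young serum, short and long members had medians of 0.33 and 0.31, against 0.09 and -0.0009 over all tested genes in those classes.

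Other genes of the pathway gave a frame for these values. The 36 nuclear genes of complex I, which feeds electrons from NADH, were all lower with young serum than with saline, with a median of -0.54 and 24 at an unadjusted p under 0.05, where 11.4% of tested genes were lower at that threshold. Saline replicate 6 stood apart here as well: the 36 summed to 13929 CPM in it, against 6669 to 7398 CPM in the other saline libraries. A median without that library is not given. All 36 were higher with EV-depleted serum than with young serum, with a median of 0.31 and 7 at an unadjusted p under 0.05, where 1.75% of tested genes were higher at that threshold. No gene of any list named here passed limma at an adjusted p of 0.05.

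Assembly factors, which put the complexes together and are not part of them, were lower with young serum than with saline in 4 of 4 genes for complex II, 5 of 6 for complex III, 19 of 26 for complex IV and 5 of 6 for complex V. Their medians were -0.32, -0.16, -0.30 and -0.15 in the same order, and 52.5% of all tested genes were lower. Saline replicate 6 had the highest sum of each list, at 133, 915, 1341 and 610 CPM in that order. The other saline libraries stood at 71.3 to 77.3, 323 to 376, 924 to 967 and 282 to 288 CPM. Cox20, a chaperone for a mitochondrially encoded subunit of complex IV, averaged 11.3 ± 0.651 CPM with EV-depleted serum, 9.72 ± 0.321 CPM with young serum and 13.3 ± 1.12 CPM with saline (SD, n = 3, 4 and 4). For EV-depleted serum minus young serum, 4 of 4, 6 of 6, 22 of 26 and 5 of 6 were higher, against 51.3% of all tested genes.

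Of 19 genes that bring electrons to ubiquinone by other routes or make it, 14 were lower with young serum than with saline. Their median was -0.19, and 52.5% of tested genes were lower. With EV-depleted serum, 17 were higher than with young serum, at a median of 0.20, against 51.3% of tested genes. Coq8a, an atypical kinase of ubiquinone synthesis, averaged 857 ± 91.4 CPM with EV-depleted serum, 553 ± 192 CPM with young serum and 516 ± 188 CPM with saline. Of 19 regulators of mitochondrial genes, 14 were higher and 5 lower with young serum than with saline. The median was 0.11, and 52.5% of tested genes were lower. With EV-depleted serum, 17 were higher than with saline, at a median of 0.12, against 49.6% of tested genes. On the mean of centred values of this list, saline replicate 6 was the lowest of the 11 libraries, at -0.23. Medians without it are not given. Ppargc1a, a coactivator of mitochondrial biogenesis, averaged 26.6 ± 5.23 CPM with EV-depleted serum, 25.8 ± 3.90 CPM with young serum and 27.6 ± 19.035 CPM with saline. Ppara, a nuclear receptor of fatty acid oxidation, averaged 4.67 ± 2.17, 4.33 ± 2.17 and 1.66 ± 1.04 CPM in the same order of groups (difference 1.01 ± 0.34 for young serum minus saline, limma adjusted p = 0.180).

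Of 20 other mitochondrial proteins outside the respiratory chain, 16 were lower with young serum than with saline at a median of -0.15, and 18 were higher with EV-depleted serum than with young serum at a median of 0.15. The 35 cytosolic ribosomal protein genes, which are short like many members, were all lower with young serum than with saline at a median of -0.64. For EV-depleted serum minus young serum, 24 of the 35 were higher and 11 lower, at a median of 0.09.

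The genes closest in pattern to the members were sought by Pearson's r with the mean of the members over the 11 libraries, as a description without a test. They were Ndufv2 (0.989), a subunit of complex I, Etfb (0.989), a subunit of the electron transfer flavoprotein, and Prdx5 (0.987), a peroxidase. Next came Ndufa4 (0.985), now counted as a complex IV subunit, and Mrps7 (0.985), a protein of the mitochondrial ribosome. All points share saline replicate 6, and without it the 5 values were 0.988, 0.992, 0.955, 0.953 and 0.971.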

How the data were processed

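The libraries were sequenced from total RNA with standard Illumina protocols, per the labels' protocols. Tools named in the submitters' processing notes, with no version, role or order, are STAR, FastQC and DESeq2, and the build is mm10; no source used here states whether counting used strand. The authors' deposited CPM values sum to 1000000 per library over 18269 genes, with an offset of 0.0001 added, as read from the values. The authors' deposited TPM values divide by genomic span, introns included (totals of 288820), so CPM was used and TPM only as an alternative. Low CPM values were whole multiples of 1 read, within 0.1 reads, for 75.6% to 79.0% of values between 0.01 and 1 CPM, too few for a count model. The steps gave depths of 36370000 to 42190000 reads.

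The 13187 genes that reached 1 CPM in 3 or more libraries (5082 were removed) were tested in limma 3.58.1 (R 4.3.3) on log2(CPM + 1), 3 groups in 1 model, with a trend of variance on mean, two-sided, and Benjamini-Hochberg adjustment at 0.05 over all 13187. Differences are on that scale, which understates the change of low genes. The fit was tested on simulated data. Isoform ratios used exact permutation tests (scipy 1.17.1). Transcript lengths are those of the shortest principal transcript in GENCODE M21, matched by symbol for 46 members and by position for 2. Promoter windows come from RefSeq.

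Samples were grouped by their labelled injection. Members, lists, tests and alternatives were chosen with earlier results of these data known. Members described library by library were, for each complex, those with the highest mean CPM and with the largest and smallest test statistic of each comparison, plus Cycs, Cyc1 and both genes of each isoform pair. Of the pathway lists, counts and up to 3 genes with the largest statistic were eligible to be named; Atp5e, Ppargc1a, Fabp4 and Adipoq were chosen after their values were seen. Alternatives were the pseudocount, the filter, the scaling, the TPM table, a replicate block, fits of 2 groups alone, library weights and leaving out each library.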

Additional observations from a re-analysis of the deposited data

Results flagged for a closer look

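In 17 values, saline replicate 6 lay far from the other 3 saline libraries, with a gap to the nearest of them above Dixon's 95% critical value for 4 samples. They were the mean of complex III (1.05), the ratio of Cox7a1 over Cox7a2 (6.58) and the CPM of 15 members described library by library. In complex II these were Sdhb (525 CPM) and Sdhd (424 CPM). In complex III they were Cyc1 (621 CPM), Uqcr11 (873 CPM), Uqcrc1 (919.6 CPM) and Uqcrh (1025 CPM). In complex IV they were Cox4i1 (2236 CPM), Cox4i2 (5.73 CPM), Cox6b1 (855 CPM), Cox7a1 (1355 CPM), Cox7a2 (205 CPM) and Cox8b (1898 CPM). In complex V they were Atp5e (2320.4 CPM), Atp5g3 (765 CPM) and Atp5h (375 CPM). Chance marks about 1 in 20 groups in this way. Over all 46 tested members, 22 were marked, each time for saline replicate 6 and in none of the young serum libraries, against 12.3% of tested genes in saline and 4.94% in young serum. The EV-depleted serum group, with 3 libraries, was not examined in this way.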

How the results depend on the processing

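Before weighting or leaving out libraries, 0 genes passed limma in each comparison, and 2890 (young serum against saline), 1593 (EV-depleted serum against saline) and 294 (EV-depleted serum against young serum) had an unadjusted p under 0.05. With library weights 3441, 1794 and 24 passed in the same order, 17, 1 and 0 of them members. Leaving out 1 library gave 0 to 251, 0 to 5 and 0 to 0 genes. For young serum against saline the 251 came from dropping saline replicate 2, and dropping saline replicate 6 gave 1. For EV-depleted serum against saline, dropping saline replicate 2 gave 5, dropping saline replicate 6 gave 2 and dropping saline replicate 4 or EV-depleted serum replicate 4 gave 1. Dropping both saline replicates 4 and 6, added after seeing the data, gave 2 there. Other settings gave 0, apart from the replicate block. None of the genes so called without weights was a member, and the cause was not tested.

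Correlations of same-numbered libraries of different groups, taken on deviations from the group means, ran from -0.277 to 0.300. Those of differently numbered libraries ran from -0.501 to 0.536. With so few libraries these values cannot decide whether the replicate numbers paired the libraries. With a replicate block, 6 genes passed for EV-depleted serum against saline and 0 in the other comparisons. Young serum replicate 1 and saline replicate 6 share their number with no other library. Under the block neither entered a difference between groups or its SE, as if both had been left out. With that block, young serum minus saline was -0.09 in complex II, -0.25 in complex III, -0.32 in complex IV and -0.23 in complex V, and 15 members were lower at an unadjusted p under 0.05, against 8.68% of tested genes. For EV-depleted serum minus young serum, 25 members were higher at that threshold under the block, against 2.97%.

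The complex means were recomputed 183 times; 172 kept their sign, and the 11 that did not were among the 61 values of EV-depleted serum minus saline. Leaving out 1 library, young serum minus saline ranged from -0.36 to -0.15 in complex II, -0.66 to -0.29 in complex III, -0.80 to -0.35 in complex IV and -0.67 to -0.27 in complex V. The isoform ratios were recomputed with other pseudocounts and without libraries, and could not pass after adjustment with groups of this size. The precision is limited by 3 or 4 libraries a group, whose median SD over genes was 0.22, 0.15 and 0.30 on the log2 scale with EV-depleted serum, young serum and saline.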
